A study of Mus musculus with 10 samples.

Results

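The constitutive gene-end p65 regions are stretches of the mouse genome that were listed as bound by p65 in conventional and in regulatory T cells, both without and with stimulation of the T cell receptor, and that lie at a gene's start or end. There were 1197 of them among the 11923 regions that the 4 deposited peak lists give when merged (10.0%), and they made up 1197 of the 1644 regions present in every list (72.8%, 95% Wilson interval 70.6% to 74.9%). Overlapping peaks were joined within each list, and lists were joined wherever they overlapped by 1 bp. A region was kept when all 4 lists contributed to it and its summit, the point of its strongest peak by fold enrichment, lay within 1 kb of the start or end of a protein-coding gene in mm10. The members were therefore chosen by the peaks themselves: passing the authors' threshold in every list and the position of the summit are what selected them, and neither is a finding.

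The libraries came from Tconv and Treg of spleens and lymph nodes of C57BL/6 mice. Cells were either unstimulated, in a culture not given in the sources used here, or stimulated for 3 h, with antibody against CD3 fixed to the plate and antibody against CD28 in solution. IL-2 was present in that culture at 2 ng/ml for Tconv and at 10 ng/ml for Treg, so cell type and IL-2 cannot be told apart between the stimulated groups. There were 8 libraries precipitated with 1 antibody against p65 (Santa Cruz sc-372), 2 in each of 4 groups, and 2 libraries of input chromatin mixed from the groups. The authors deposited 1 list per group, made from both of its libraries, so no value below has a spread between replicates. The number of reads behind a list is unknown. Intervals are 95% Wilson intervals for shares and 95% Newcombe intervals for differences of shares. They cover counting error alone, and regions are not replicates. No library from cells without p65 is among those used here, and which proteins the antibody held at these promoters was not tested.

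p65, also called RelA, is the subunit of the transcription factor NF-kB that activates most of its genes in T cells. In resting cells it is held mainly in the cytoplasm by IkB proteins, and signals from the T cell receptor and CD28 release it to the nucleus, where its dimers bind a short GC-flanked sequence, the NF-kB consensus. Among its best known targets are the genes for its own inhibitors, which end the response. NRF1 is an unrelated activator that binds a palindromic CG-containing sequence in the promoters of many genes used by every cell, among them genes for mitochondria, RNA processing and protein synthesis.

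The promoters of the members held one or other of these sequences, both or neither, and examples of each sequence follow. Each stretch below has 60 bases, is written 5′ to 3′ along the gene's strand, and comes from RefSeq's promoter sequences for GRCm38.p6, the assembly with mm10 coordinates. Capitals mark the motif. The first set has the NRF1 motif and a high fold enrichment in the unstimulated lists. Its stretches are Rab3gap2 at chr1:185204020-185204079 (+ strand), Ehmt1 at chr2:24919723-24919782 (- strand), Polh at chr17:46202701-46202760 (- strand) and Dync1li1 at chr9:114688628-114688687 (+ strand). Tada2b at chr5:36484321-36484380 (- strand) and Btf3 at chr13:98317018-98317077 (- strand) also carry the NRF1 motif, and stand higher among the members in the unstimulated lists than in the stimulated ones.
Rab3gap2: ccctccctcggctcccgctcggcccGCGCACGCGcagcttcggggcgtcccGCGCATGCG
Ehmt1: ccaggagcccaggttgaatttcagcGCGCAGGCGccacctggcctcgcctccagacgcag
Polh: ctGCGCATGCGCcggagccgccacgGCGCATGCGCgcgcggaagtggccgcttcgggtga
Dync1li1: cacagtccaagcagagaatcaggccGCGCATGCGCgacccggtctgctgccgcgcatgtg
Tada2b: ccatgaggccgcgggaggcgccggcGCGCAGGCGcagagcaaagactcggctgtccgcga
Btf3: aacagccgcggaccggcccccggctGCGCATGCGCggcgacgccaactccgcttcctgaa

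The second set has the NF-kB consensus, again in capitals. Tnfaip3 at chr10:19015501-19015560 (- strand) and Rel at chr11:23771027-23771086 (- strand) are NF-kB's own feedback and subunit genes with high fold enrichment in every list. Polg2 at chr11:106779628-106779687 (- strand), H2-D1 at chr17:35262898-35262957 (+ strand) and Ltb at chr17:35194395-35194454 (+ strand) stand much higher among the members after stimulation. Phf12 at chr11:77982663-77982722 (+ strand) has both motifs in its promoter, and the stretch shows its NF-kB consensus.
Tnfaip3: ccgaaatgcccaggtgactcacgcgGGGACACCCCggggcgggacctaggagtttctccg
Rel: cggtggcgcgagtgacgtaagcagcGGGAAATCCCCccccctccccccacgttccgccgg
Polg2: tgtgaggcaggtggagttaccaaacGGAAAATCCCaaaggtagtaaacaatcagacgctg
H2-D1: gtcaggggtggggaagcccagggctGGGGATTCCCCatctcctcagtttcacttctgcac
Ltb: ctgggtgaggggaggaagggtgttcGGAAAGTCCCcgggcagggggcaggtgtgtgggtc
Phf12: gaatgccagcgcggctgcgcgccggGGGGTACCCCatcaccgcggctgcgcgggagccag

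The centre of the motif in capitals lay between -55 bp (Ehmt1) and 79.5 bp (H2-D1) from the p65 summit in these 12 examples, where negative distances lie before the summit along the gene. In the NRF1 examples it was at -55 bp for Ehmt1, -21 bp for Dync1li1, -13 bp for Rab3gap2, -9 bp for Polh, -1 bp for Btf3 and 1 bp for Tada2b. In the NF-kB examples it was at -38.5 bp for Tnfaip3, -7.5 bp for Rel, 6.5 bp for Phf12, 24.5 bp for Ltb, 26.5 bp for Polg2 and 79.5 bp for H2-D1. The examples were picked for a motif within 100 bp of the summit, so their distances describe them and nothing else.

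Nearly all members sat at the start of a gene rather than at its end. The strand of the nearest gene was known for 989 members, and 969 of these (98.0%, 96.9% to 98.7%) were nearest to its start. Only 20 were nearest to the end, and 8 of these had a listed start of any gene, the same one included, within 1 kb. The members at an end include Junb, which encodes an AP-1 subunit, Cd3d, which encodes a signalling chain of the T cell receptor, and the far end of Rela, the gene of p65 itself. The summit lay a median of 72 bp from the nearest gene boundary (quartiles 28 and 188 bp), and 722 members (60.3%) had it within 100 bp, although the rule allowed 1 kb. In the 962 members with a RefSeq promoter sequence within 1 kb, 754 summits (78.4%, 75.7% to 80.9%) lay before the start, with a median position of -53 bp.

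Some members lay at promoters shared by a pair of genes. Starts of 2 or more genes lay within 1 kb of the summit in 140 of the 962 members (14.6%, 12.5% to 16.9%), and in 139 of these the genes ran in opposite directions. Among all 17492 genes with a promoter sequence, 1722 (9.84%, 9.41% to 10.3%) had the start of another gene within 1 kb. The shares are not like measures. Members were counted per region, around the summit. The background was counted per gene, around its first start, so both genes of a pair can count. Such a region cannot be given to either gene: the strongest of all, named here by Armc6, also lies at the start of Sugp2, and that of Polg2 also lies at Ddx5.

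The 4 groups' summits fell on nearly the same spot. The outermost summits of a member lay a median of 45 bp apart (quartiles 25 and 86 bp), and all 4 were within 100 bp in 937 of 1197 members (78.3%, 75.9% to 80.5%). In the 447 all-list regions away from gene ends the same held for 326 (72.9%, 68.6% to 76.8%), a difference of 5.35 percentage points (0.747 to 10.2). Members spanned a median of 1527 bp and the regions away from gene ends 1730 bp, a width that grows with the number of peaks joined.

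The members just inside the 1 kb limit were Spg11, Eapp, Eif4e, Zbtb2 and Tmem65, with summits 997, 995, 990, 989 and 980 bp from the boundary. The all-list regions just outside were those at Gramd4 (1010 bp), Sp3 and Tmem106c (both 1017 bp), Aebp2 (1033 bp) and Hmgb1 (1038 bp). Their folds in the unstimulated Tconv list ran from 9.23 to 22.3 inside the limit and from 4.94 to 41.4 outside it, so both sides overlapped.

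Fold enrichment over local background is the authors' value for each peak and was used to rank members within a list. Between lists it served only to choose the strongest peak of a region, whose summit stands for that region. No change between lists is read from it. The members' median fold without stimulation was 12.8 for Tconv (quartiles 7.75 and 20.1) and 13.2 for Treg (8.27 and 20.6). With stimulation it was 13.9 for Tconv (11.2 and 18.04) and 13.3 for Treg (10.5 and 18.1). All-list regions away from gene ends had medians of 8.86, 9.96, 16.2 and 17.3 in the same order. The members thus had the higher median of these sets in both unstimulated lists, and the lower one in both stimulated lists. Medians over each whole list were 8.49, 8.30, 12.8 and 11.5.

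**Figure D1:**
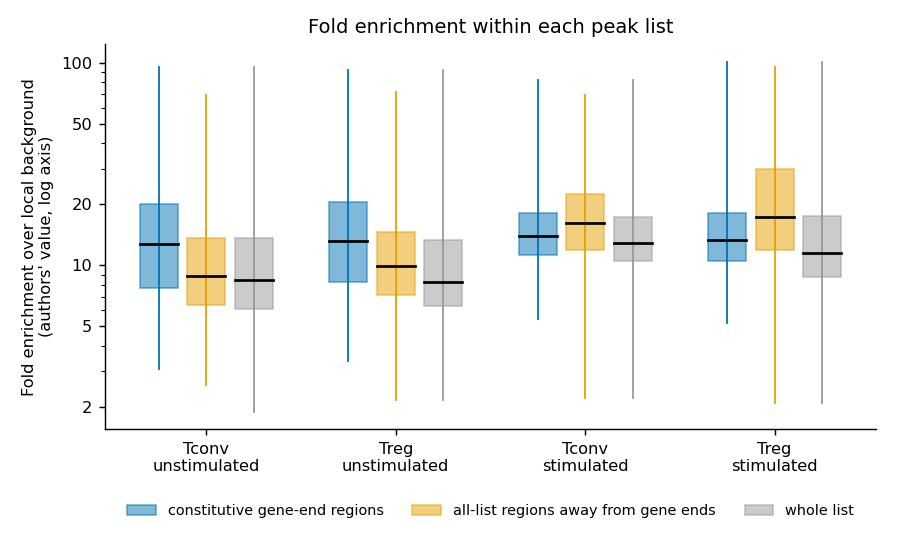
Fold enrichment over local background (authors' value, log axis) in each of the 4 peak lists, for the 1197 constitutive gene-end regions, the 447 all-list regions away from gene ends and each whole list. Boxes span the quartiles, thick lines are medians and thin lines run from the lowest to the highest value. The members' median is above that of the all-list regions away from gene ends in the unstimulated lists (12.8 against 8.86 in Tconv) and below it in the stimulated lists (13.9 against 16.2 in Tconv).

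The top of each list showed the same split. Of the 100 regions with the highest fold in the unstimulated Tconv list, 85 lay in members, as did 91 of the top 100 of the unstimulated Treg list. After stimulation the counts were 20 of 100 in Tconv and 7 of 100 in Treg. All-list regions away from gene ends supplied 13, 9, 29 and 22 of the top 100 in the same order of lists. The stimulated lists are longer, with 5734 and 11077 regions against 2961 and 3208, and members made up 21.0% and 11.1% of them against 40.7% and 37.6%, so these counts have different backgrounds.

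The region at Armc6 (chr8:70233823-70235017) had the highest rank over all 4 lists, with folds of 95.6 and 92.4 in the unstimulated lists of Tconv and Treg, and of 58.2 and 39.0 in the stimulated lists of Tconv and Treg. Folds of a gene are given below in this order. Phf12 (chr11:77981346-77985097), a PHD-finger protein of the Sin3 corepressor, had 88.3, 84.1, 48.7 and 36.9. Rab3gap2 (chr1:185203227-185204645), a subunit of the complex that regulates the vesicle GTPase Rab3, had 75.3, 77.0, 44.7 and 36.4. These 3 were the strongest members of both unstimulated lists, and none was the strongest in a stimulated one.

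Upf1, the helicase of nonsense-mediated mRNA decay, had folds of 68.3, 65.6, 53.5 and 36.2. Ehmt1, a histone H3 lysine methyltransferase, had 73.7, 68.7, 43.7 and 32.1, and Polh, the DNA polymerase that copies past ultraviolet damage, 62.2, 65.6, 45.7 and 31.0. Rab35, a GTPase of endocytic recycling, Dync1li1, a dynein subunit, and the zinc finger gene Zbtb41 completed this group with unstimulated folds between 58.7 and 71.8. The one known NF-kB target among the 10 was Tnfaip3 (chr10:19013050-19016193), which encodes A20, the ubiquitin editor that shuts NF-kB signalling off. Its folds were 35.1, 43.3, 70.2 and 86.1, with both high values in the stimulated lists, whereas the other 9 had theirs in the unstimulated lists. The promoters of those 9 all had the NRF1 motif, and that of Tnfaip3 had the NF-kB consensus at 2 places and no NRF1 motif.

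Members kept their order between cell types far more than between stimulation states. Over the 1197 members the Spearman correlation of fold was 0.94 between unstimulated Tconv and unstimulated Treg and 0.77 between the stimulated lists. Between the states of 1 cell type it was 0.40 in Tconv and 0.15 in Treg. Across both cell type and state it was 0.44 between unstimulated Treg and stimulated Tconv and 0.09 between unstimulated Tconv and stimulated Treg. These values describe the members. The points share promoter sequence and mappability, and the series has 1 set of input libraries whose use in the peak calling is not given, for all 6 pairs alike.

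Each member's place was then written as its percentile among the members, averaged over both unstimulated lists and over both stimulated lists. The difference of the averages says whether a member stood higher with or without stimulation. It is an order among members, not a change in binding. The difference ran from -75.0 to 92.1 percentile points, with quartiles of -23.6 and 21.1, and 675 of the 1197 members (56.4%) stood higher without stimulation.

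The members that stood highest after stimulation relative to rest were led by Polg2 (chr11:106778182-106780881), the accessory subunit of the mitochondrial DNA polymerase. Its folds were 6.17, 5.29, 40.2 and 56.4, and its average percentile was 6.64 at rest and 98.7 after stimulation. Stx6, a SNARE of the trans-Golgi network, had 5.28, 6.14, 34.2 and 39.8. Itpkb, a kinase that phosphorylates inositol trisphosphate, had 5.62, 6.67, 34.7 and 46.9. Atr, the kinase of the DNA replication checkpoint, had 4.68, 6.52, 25.6 and 34.9. All of these stood near the bottom of the members at rest, with percentiles from 4.87 to 9.44, and near the top after stimulation, with percentiles from 93.6 to 98.7.

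Ehd1, an ATPase of endocytic recycling, Tox, an HMG-box factor of T cell development, Ly96, the partner of the endotoxin receptor, Gbp4, an interferon-induced GTPase, and Nhlrc3 were also among the 10. Their folds lay between 4.79 and 6.90 in the unstimulated lists and between 22.5 and 53.5 in the stimulated lists. Of the 10, 6 had a promoter sequence, of which 0 held the NRF1 motif and 2 (Polg2 and Atr) held the NF-kB consensus.

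At the other end stood Zbtb14 (chr17:69382150-69384638), a zinc finger gene, with folds of 19.8, 24.7, 8.47 and 7.90 and percentiles of 78.4 at rest and 3.40 after stimulation. Stim2, a calcium sensor of the endoplasmic reticulum, had 18.3, 19.4, 9.11 and 8.81. Tada2b, an adaptor of the SAGA histone acetyltransferase, had 23.1, 20.9, 11.5 and 7.74. Dtx2, Alg8, Mcph1, Exosc2, Mrpl54, U2af2 and Rnf8 made up the 10, among them genes for sugar transfer in glycoprotein synthesis (Alg8), RNA decay (Exosc2), mitochondrial translation (Mrpl54) and splicing (U2af2). Of these 10, 7 had a promoter sequence and 6 of the 7 held the NRF1 motif.

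**Figure D2:**
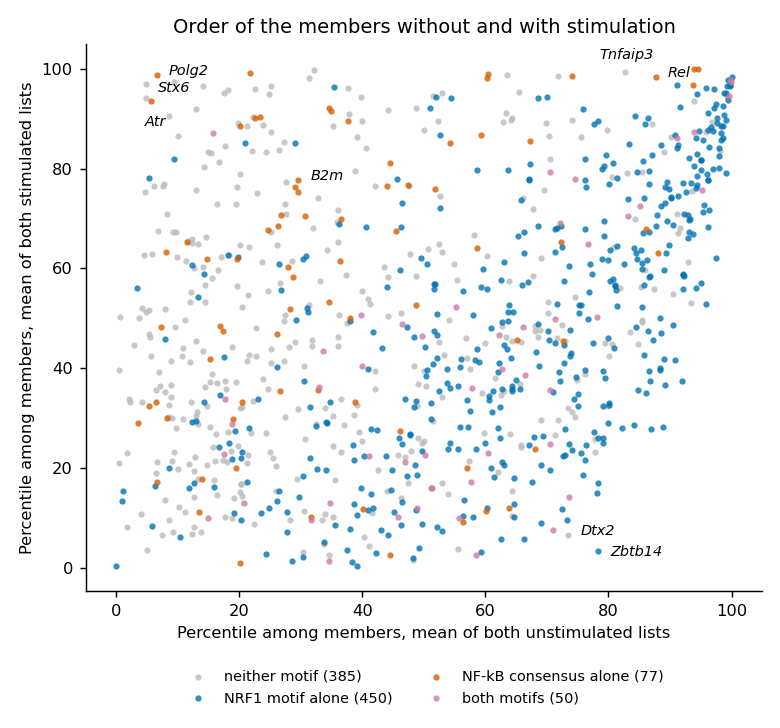
Each point is 1 of the 962 members with a promoter sequence. The horizontal axis is the percentile among members averaged over both unstimulated lists, the vertical axis that over both stimulated lists, and colours give the motifs in the promoter window. Points with the NRF1 motif alone lean toward high unstimulated percentiles (median 68.9, quartiles 48.4 and 86.3). Those with the NF-kB consensus alone are spread widely over the stimulated percentiles (median 62.0, quartiles 33.2 and 81.2). Those with both motifs have a median stimulated percentile of 37.5.

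Differences between the cell types were smaller. The Treg minus Tconv percentile difference had quartiles of -7.12 and 6.60, against -23.6 and 21.1 for stimulation. C1galt1, an enzyme of O-glycan synthesis, leaned most to Treg, with folds of 6.37 and 8.58 in the Tconv lists and 8.83 and 19.96 in the Treg lists (unstimulated, then stimulated). Lta, the gene of lymphotoxin alpha, had 5.35 and 10.0 against 5.48 and 18.8, so its lean to Treg came from the stimulated lists. Prmt2, an arginine methyltransferase, leaned most to Tconv, with 11.7 and 14.3 against 10.97 and 6.70. The far-end region of Rela was next, with 19.6 and 16.6 against 17.3 and 9.38.

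Sequence was available for 962 of the 1197 members, as windows of 300 bases that run from 250 before to 50 after a RefSeq gene start. A set of 14 motifs was searched on both strands, all but the NF-kB consensus as fixed letters with N for any base. NRF1 was searched as GCGCANGCG, SP/KLF as GGGGCGGG, YY1 as AANATGGCG and IRF as AANNGAAA. The cyclic AMP response element, or CRE, was searched as TGACGTCA, the CGCG element as TCTCGCGAG and ZNF143/THAP11 as ACTACAATT. The shorter ETS motif was searched with the letters CCGGAAG. The NFY motif is the CCAAT box. For the E-box, which basic helix-loop-helix factors bind, the letters were CACGTG. For AP-1, the factor of Fos and Jun proteins, they were TGANTCA. RUNX factors were given by TGTGGT. The TATA box was given by TATAAA. The NF-kB consensus completes the 14. A match describes the letters of the window and does not show that a factor was bound there. No NRF1 match shared a base with an NF-kB or SP/KLF match. Matches of the NF-kB consensus shared bases with an SP/KLF match in 2 of 127 windows.

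The NRF1 motif was in 500 of the 962 windows (52.0%, 48.8% to 55.1%). It was in 1824 of all 21263 promoter windows (8.58%), a difference of 43.4 percentage points (40.2 to 46.6). Members' windows were richer in G and C, with a median of 65.7% against 56.3%, and in CpG, with an observed-to-expected ratio of 0.914 against 0.567. GC-rich windows (at least 55% GC and a ratio of at least 0.6) with no p65 region within 1 kb held the NRF1 motif in 662 of 5832 cases (11.4%), which left a difference of 40.6 points (37.4 to 43.9). That set had a median GC of 66.0% but a lower median CpG ratio, 0.827, and the members were not held to its limits. The NRF1 motif contains CpG, and how much of the difference goes with CpG content was not tested.

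Other gene-end regions had the motif less often than the members. Of those listed in both stimulated lists alone, 24 of 504 windows (4.76%) held NRF1, and the members exceeded them by 47.2 points (43.3 to 50.7). Of those in both unstimulated lists alone, 92 of 256 (35.9%) held it, a difference of 16.0 points (9.22 to 22.5). The share was 35.2% in the gene-end regions of every list but stimulated Tconv and 6.56% in those of the stimulated Treg list alone.

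The NF-kB consensus was in 127 of the 962 windows (13.2%, 11.2% to 15.5%), against 9.25% of all windows, a difference of 3.95 points (1.92 to 6.27). Against the GC-rich windows without a p65 region (12.1%) the difference was 1.15 points, with an interval from -1.02 to 3.57 that includes 0. Against the gene-end regions of both stimulated lists alone (10.9%) it was 2.29 points (-1.33 to 5.63). Against those of both unstimulated lists alone (7.03%) it was 6.17 points (1.87 to 9.59). The gene-end regions of every list but unstimulated Tconv had a higher share than the members, 24 of 135 windows (17.8%, 12.2% to 25.1%). A looser form of the consensus was in 16.2% of the members' windows and 12.0% of all windows.

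Of the other motifs, ETS was in 21.5% of the members' windows against 11.6% of all windows and 17.6% of the GC-rich windows without a region, a difference from the latter of 3.96 points (1.29 to 6.83). SP/KLF was in 39.9% against 22.1% and 40.5%, and the difference from the GC-rich windows was -0.618 points (-3.92 to 2.75). YY1 was in 6.86% against 3.12% and 4.65%. The A- and T-rich motifs were in fewer members' windows than in all windows, with TATA at 4.57% against 12.6% and IRF at 13.7% against 21.8%. In the GC-rich windows they were at 3.82% and 10.5%. NFY, at 30.2%, was below both all windows (38.2%) and the GC-rich windows (34.7%).

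The share of windows with the NRF1 motif followed the members' fold at rest. Members were ordered by their percentile in the unstimulated lists and divided into 5 equal groups. From the weakest to the strongest, 18.03%, 30.4%, 58.4%, 68.8% and 80.4% had the motif, a difference between the outer groups of 62.4 points (53.7 to 69.3). In the order of the stimulated lists the shares were 56.5%, 51.2%, 49.5%, 52.7% and 50%, and the outer groups differed by -6.54 points (-16.5 to 3.64). The NF-kB consensus took another course, with 13.1%, 18.3%, 16.2%, 12.1% and 6.86% by fold at rest, a difference of -6.25 points (-12.5 to -0.264). By fold after stimulation it was in 16.2%, 9.36%, 10.8%, 14.9% and 15.3%, a difference of -0.889 points (-8.35 to 6.69), so no rise with stimulated fold was seen. ETS differed by -9.23 points (-17.0 to -1.52) between the outer groups by fold at rest. A lower share at high resting fold was therefore not particular to the NF-kB consensus. NFY differed by -9.64 points (-18.6 to -0.358) between the outer groups by fold after stimulation. Median GC in the 5 groups by fold at rest lay between 64.0% and 66.7%.

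Members were also divided by the difference between stimulated and unstimulated percentile. From the members standing highest at rest to those standing highest after stimulation, NRF1 was in 73.9%, 71.2%, 65.6%, 30.3% and 13.1% of windows, a difference of -60.8 points (-67.8 to -52.0). The percentile at rest is part of this order, so the NRF1 fall goes with its rise by fold at rest and is no separate result. The NF-kB consensus was in 10.3%, 9.60%, 9.90%, 18.4% and 18.5%, a difference of 8.11 points (0.972 to 15.5), which goes with its lower share at high resting fold. Median GC in these groups was 63.7%, 64.7%, 67.3%, 67.7% and 65.7%. SP/KLF, another GC-rich motif, differed by 2.44 points between the outer groups (-7.41 to 12.3). NFY differed by -10.8 points (-19.9 to -1.22), from 36.9% to 26.2%. The NFY difference depended on the setting. It was -2.42 points (-10.7 to 6.08) in a shorter window before the gene start. Where the summit lay in the window it was -9.21 points (-19.7 to 2.09). With every list held to a common p threshold it was -17.8 points (-29.4 to -5.19). Whether the order is particular to the NRF1 and NF-kB motifs is therefore not settled by NFY.

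**Figure D3:**
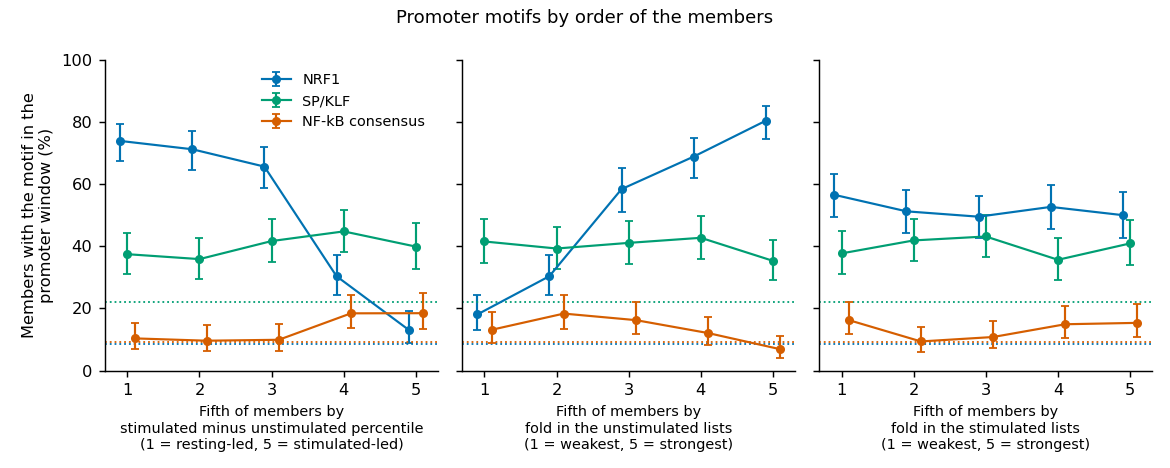
Share of members' promoter windows with the NRF1, SP/KLF or NF-kB consensus motif (vertical axis, percent) in 5 equal groups of members, ordered by stimulated minus unstimulated percentile, by fold in the unstimulated lists and by fold in the stimulated lists. Bars are 95% Wilson intervals and dotted lines the shares in all promoter windows. NRF1 rises from 18.03% to 80.4% with fold in the unstimulated lists and lies between 49.5% and 56.5% in the order of the stimulated lists.

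The number of NRF1 matches in a window went with fold as well. Windows with 0 matches (462 members) had a median fold of 8.86 in unstimulated Tconv, those with 1 match (352) 16.0, those with 2 (124) 24.2 and those with 3 or more (24) 35.9. In unstimulated Treg the medians were 9.63, 16.1, 24.0 and 35.3. In stimulated Tconv they were 13.4, 13.4, 16.1 and 19.1, and in stimulated Treg 13.6, 12.0, 13.6 and 14.7. The unstimulated medians climb at each step, and the stimulated Treg medians do not. For the NF-kB consensus, windows with 0 (835), 1 (119) or 2 matches (8) had medians of 13.0, 13.6 and 18.2 in stimulated Treg and 13.7, 14.2 and 17.2 in stimulated Tconv. At rest they were 13.9, 11.9 and 10.9 in Treg and 13.5, 11.8 and 12.1 in Tconv. With 8 members at 2 matches, these steps are not firm.

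Divided by both motifs, 450 members had NRF1 alone, 77 the NF-kB consensus alone, 50 both and 385 neither. The median percentile difference between stimulated and unstimulated lists was -17.0 with NRF1 alone, 24.4 with the NF-kB consensus alone, -16.7 with both and 11.2 with neither. Members with both motifs thus had a median close to that of NRF1 alone.

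The NRF1 motif also lay at the summit. Of the 764 members whose summit fell inside the window, 467 had the motif, with a median distance of 17 bp between its centre and the summit, and 397 of these (85.0%, 81.5% to 88.0%) had it within 50 bp. The SP/KLF motif, present in 310, lay a median of 51.5 bp away, with 49.7% within 50 bp. The NF-kB consensus, present in 109, lay 55.5 bp away, with 44.0% (35.1% to 53.4%) within 50 bp, and ETS, present in 174, lay 58.0 bp away. In the gene-end regions of both stimulated lists alone, the NF-kB consensus (43 of 339 windows) lay a median of 42.5 bp from the summit and NRF1 (20 of 339) 80.5 bp.

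**Figure D4:**
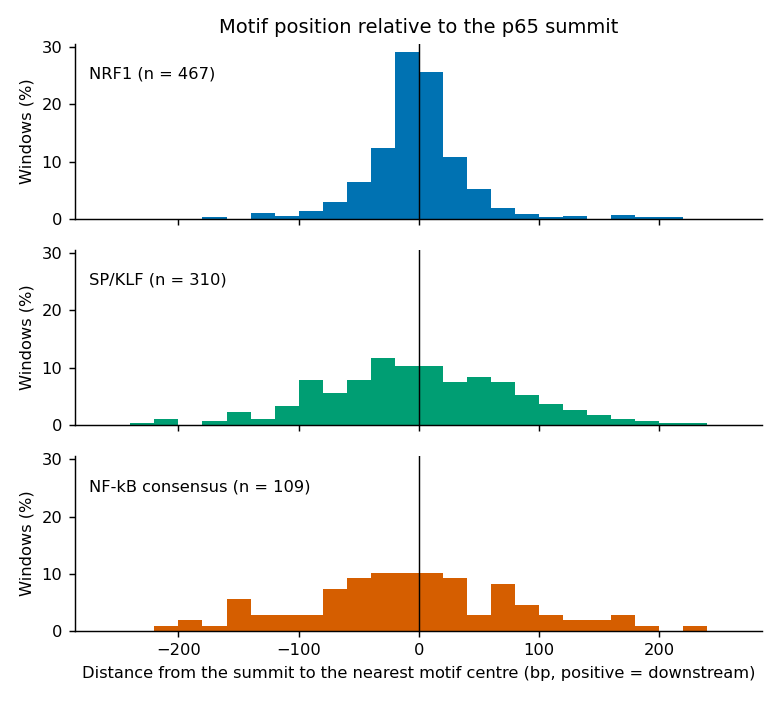
Distance from the p65 summit to the centre of the nearest match (horizontal axis, bp, positive downstream along the gene) for NRF1, SP/KLF and the NF-kB consensus, as a percent of the members' windows that hold the motif and the summit (vertical axis). NRF1 forms a narrow peak at the summit with 85.0% of windows within 50 bp, while SP/KLF has 49.7% and the NF-kB consensus 44.0%.

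The strongest regions of each list show this in small numbers. Among members in the top 100 of the unstimulated Tconv list with a promoter sequence, 67 of 76 (88.2%) held NRF1 and 6 the NF-kB consensus, and in unstimulated Treg 69 of 80 (86.3%) and 9. In the stimulated Tconv list 7 of 16 held each motif. In stimulated Treg 0 of 6 held NRF1 and 4 of 6 the NF-kB consensus.

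The genes nearest to the members numbered 1195 of 21887 protein-coding genes (5.46%). Of the NF-kB pathway, 4 of 5 subunit genes (80.0%, 37.6% to 96.4%), 3 of 6 IkB genes (50%, 18.8% to 81.2%) and 6 of 18 genes for A20 and the other ubiquitin editors (33.3%, 16.3% to 56.2%) had a member. The IKK complex and upstream adaptors had 2 of 17 (11.8%, 3.29% to 34.3%), an interval that includes 5.46%. Both of these, Map3k14 and Tbk1, stood higher at rest. These lists and the others below were chosen with results of these data known, so their counts are set beside the 5.46% as a description.

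Nfkbia, which encodes IkB-alpha, the inhibitor that NF-kB induces to end its own activity, was the strongest member of both stimulated lists. Its folds were 33.2, 42.3, 82.3 and 101.6 (chr12:55486714-55493659). Nfkb1, the gene of the p50 precursor, had 14.8, 18.2, 52.0 and 64.2. Rel, the gene of c-Rel, had 24.7, 33.0, 44.7 and 44.7, and Relb 20.3, 34.7, 41.4 and 51.4. All of these stood higher among the members after stimulation than at rest, but were in the upper part of the order in both states, with average percentiles at rest of 93.8, 63.4, 87.6 and 83.9.

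Rela had a member at each end of the gene. The start region had folds of 13.3, 13.6, 19.2 and 13.5, and the far-end region 19.6, 17.3, 16.6 and 9.38, so the 2 leaned in opposite directions, by 12.5 and -26.8 percentile points. Nfkbib, shared with the start of Sirt2, had 12.9, 13.9, 23.9 and 25.7, and Nfkbie 9.97, 14.8, 18.6 and 18.6. Birc3, a ubiquitin ligase of the TNF receptor complex, had 11.7, 15.1, 28.5 and 34.3, and its neighbour Birc2 19.3, 24.9, 22.7 and 26.5. Otulin, which removes linear ubiquitin chains, leaned to rest with 19.2, 24.1, 17.1 and 12.0, and its window held the NRF1 motif.

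Antigen presentation by MHC class I had 4 of 15 genes. H2-D1 and H2-K1, which encode heavy chains, B2m, the shared light chain, and Psme2, a proteasome activator subunit, all stood higher after stimulation. H2-D1 had folds of 7.75, 11.9, 27.8 and 26.7, and B2m 6.65, 11.9, 16.9 and 22.5. The NF-kB consensus was in 3 of the 4 windows and NRF1 in 0. Heavy chain genes are related in sequence, and reads may have been divided between them, which was not tested. Of the effector cytokines, 2 of 15 had a member, Ltb (9.05, 10.5, 23.9 and 31.1) and Lta. Early activation genes had 4 of 25: Junb (9.99, 15.7, 37.1 and 47.3), Dusp1 (5.54, 5.67, 15.9 and 22.7), Dusp5, and Fosb, which leaned to rest with 13.9, 15.4, 9.33 and 11.5. Treg identity genes had 0 of 20, the BCL2 family 0 of 12 and T cell receptor signalling 2 of 18, Cd3d and Grap2.

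The lists of genes used by every cell mostly stood above 5.46% too. Chromatin regulators had 27 of 132 (20.5%, 14.5% to 28.1%), nuclear pore and transport genes 11 of 55 (20%, 11.5% to 32.4%), translation factors 13 of 71 (18.3%, 11.02% to 28.8%), and splicing genes 14 of 88 (15.9%, 9.72% to 24.95%). Cytosolic ribosomal proteins had 7 of 81 (8.64%) and oxidative phosphorylation subunits 6 of 85 (7.06%), with intervals that include the background. The same held for proteasome subunits with 5 of 48 (10.4%, 4.53% to 22.2%) and autophagy genes with 4 of 30 (13.3%, 5.31% to 29.7%). It also held for zinc finger protein genes with 34 of 466 (7.30%, 5.27% to 10.02%). Olfactory receptors, which are silent in T cells, had 0 of 1110, and keratins 0 of 53.

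Over all members 56.4% stood higher at rest and 52.0% of windows held NRF1, and no difference between the lists was tested. Of the 14 splicing members 11 stood higher at rest, and 8 of the 13 with a window held NRF1. Lsm2, of the U6 snRNP, had folds of 24.9, 28.7, 14.7 and 14.8. Of the 10 mitochondrial ribosomal protein members 8 stood higher at rest and 8 of 9 windows held NRF1. Mrpl32 had 39.4, 35.9, 23.4 and 17.4. Mrpl36 stood apart from them with 9.48, 10.2, 30.6 and 45.6, in a region shared with Ndufs6. Vesicle traffic genes had 22 of 212, with NRF1 in 14 of 20 windows.

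Chromatin regulators divided about evenly, with 14 higher at rest and 13 after stimulation. Smarca4, the ATPase of the BAF remodeller, had folds of 37.7, 39.2, 20.4 and 17.1 and the NRF1 motif in its window at 2 places, whereas Kmt2a, a histone H3 lysine methyltransferase, had 11.4, 15.9, 34.0 and 31.1 and no NRF1 match. DNA replication and repair genes had 16 of 103, from Pola2, a subunit of DNA polymerase alpha (59.8, 63.6, 28.2 and 15.7), to Atr and Polg2 at the stimulated end. Nrf1 itself was a member (chr6:30047330-30049336), with folds of 19.4, 16.9, 16.7 and 10.2 and no match to the NRF1 motif in its window.

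**Figure D5:**
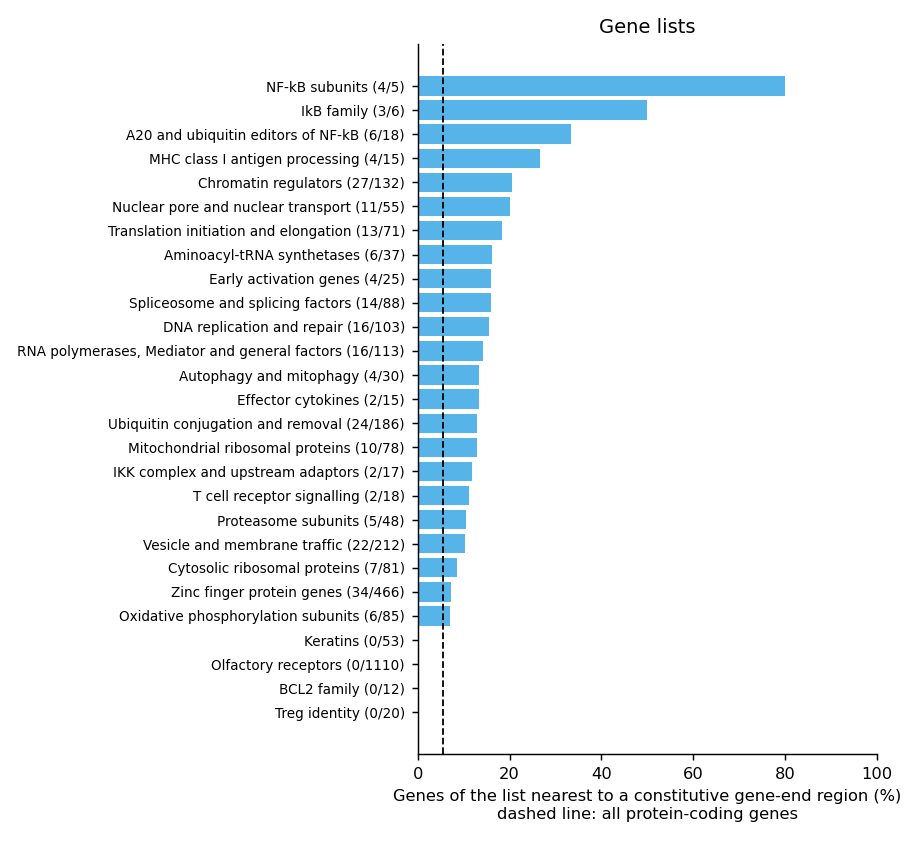
Percent of the genes of each list that are nearest to a constitutive gene-end region (horizontal axis), with counts in brackets; the dashed line is the 5.46% of all protein-coding genes. NF-kB subunits (4 of 5) and the IkB family (3 of 6) have the longest bars, and olfactory receptors, keratins, the BCL2 family and Treg identity genes are at 0.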

How the data were processed

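p65 ChIP-seq peak lists of 4 groups were used, each group with 2 libraries, beside 2 input libraries. Per the submitters' processing notes, reads involved Trim Galore 0.4.1 and BWA 0.7.15-r1140, peaks MACS2 2.1.1.20160309, and the build was mm10. The lists' own names describe peaks of pooled replicates, free of blacklisted regions and kept by a conservative test of reproducibility (IDR). Neither the depth nor how the input entered the peak calling is given in the sources used here. Per peak, fold enrichment (a ratio to local background) and −log10 p are the authors' deposited values, as are its summit and score. The deposited score equals 10 times the −log10 p (within 1 unit) in 100% of entries. These values ranked, described or filtered peaks of the same list, except that a region took its summit from the peak of highest fold over the 4 lists. A list that is deeper or cleaner can be longer or have other values, and this was not tested.

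The lists held 3132 (unstimulated Tconv), 3442 (unstimulated Treg), 6480 (stimulated Tconv) and 13078 (stimulated Treg) entries, merged to 2961, 3208, 5734 and 11077 regions. Genes, strands and promoter windows came from RefSeq's tables for GRCm38.p6 (21887 protein-coding genes, 17492 of them with 21263 windows). Members without a window within 1 kb have no sequence, and genes without any window have no strand here. Motif matches that overlap a match of the same motif were counted once. The members, the 27 gene lists and the motifs were chosen with earlier results of these data known, and the GC-rich windows were chosen as a comparison after values were seen. Genes were named by a rule: the 10 members of highest mean percentile, the 10 at each end of the order between states, the 5 at each end between cell types, the 5 on each side of 1 kb, and up to 5 members per gene list. Not every gene it names is reported here. Others named in counts, with Nrf1, Btf3 and further members at gene ends, were chosen after their values were seen. Python 3.11.15, numpy 2.4.6, pandas 2.3.3 and scipy 1.17.1 were used. Merging, positions, motif search and intervals were tested on simulated data. Alternatives were other distances, overlaps, thresholds, list lengths, windows and rank measures. No test was run over regions.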

Additional observations from a re-analysis of the deposited data

How the results depend on the processing

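The number of members, 1197 here, was 669 when every list was held to a common −log10 p of 38.1 and 289 when every list was held to the 3132 entries of the shortest. The gene-end share of all-list regions, 72.8% here, was 65.9% with a 500 bp limit, 79.0% with 2 kb, 79.6% with the common −log10 p and 58.7% with equal list lengths. The share with 4 summits within 100 bp was 81.0%, 85.4% and 70.6% with 500 bp, the common −log10 p and equal lengths, and the share at a gene start was 96.5% with equal lengths. The NRF1 share was 39.3% in the 150 bases before the start (all windows 5.89%), 61.1% where the summit lay in the window and 67.2% with the common −log10 p. The NF-kB consensus share was 8.42% in the 150 bases before the start, 10.5% with the common −log10 p and 16.2% with the looser consensus. Shorter windows and fewer entries follow from how these alternatives are built, and what else moved the values was not tested. Between the outer groups of the order the NRF1 difference kept its sign in all 3 alternatives, from -40.3 to -65.5 points, and the NF-kB difference in all 4, from 8.27 to 15.2. For the gene lists, 81 of 81 alternatives stayed within 1.5 times of the count. These were the 500 bp and 2 kb limits and every gene within 1 kb. The gene lists were not recounted with the common −log10 p or with equal list lengths. A gene list with no gene at any setting counted as unchanged. Motif shares, also those by order of the members, were not recomputed with equal list lengths. The correlations between lists were recomputed by −log10 p alone, with neither the common threshold nor equal list lengths. No paired analysis was possible because each list pools both libraries of its group, and for the same reason no replicate could be left out. Without read numbers, a region missing from a list cannot be told from one below that list's depth.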
